A study of Homo sapiens with 6 samples.

Results

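The genes described here are 44 interferon-stimulated and RNA-sensing genes, chosen by symbol from the table of read counts, which lists 29476 genes. The comparison asked whether the innate response of A549 cells differed after knockdown of DDX17. The A549 line comes from a human lung adenocarcinoma. Polyadenylated RNA was sequenced from 3 siCtrl cultures, given a nontargeting siRNA, and 3 siDDX17 cultures, given 1 siRNA against the RNA helicase DDX17, each transfected with a cationic lipid. The cells carried no other engineered change that the labels name, and cells for RT-qPCR were collected at 48 h, with no other time stated for the sequenced cultures. The methods call the 3 cultures of a group biological replicates. The labels also call the control a control plasmid, while the titles and the methods call it an siRNA.

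Cells sense double-stranded RNA with helicases such as RIG-I and MDA5, which signal through the adaptor MAVS to the transcription factors IRF3 and IRF7 and so to interferon genes. Secreted interferon then acts through its receptors, the kinases JAK1 and TYK2, and a complex that contains STAT2 and IRF9 and binds interferon-stimulated response elements (ISREs) in front of interferon-stimulated genes. Their products act on viral RNA, tag proteins or present antigens, and the sensors are among them. Lung epithelial cells use this pathway against respiratory viruses, and long double-stranded RNA and some siRNAs can set it off. Both groups received siRNA and lipid, and cultures without them were not analysed here, so the response to transfection itself could not be measured. With 1 siRNA against DDX17, effects of its sequence on other transcripts and loss of DDX17 cannot be told apart.

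Values for a group are listed in the order of its libraries 1, 2 and 3. CPM is the read count relative to the library size after TMM scaling, FPKM is the authors' count that is also relative to the length of the transcript, and the log2 fold change is that of siDDX17 over siCtrl from edgeR, given with its standard error (SE). A gene is said to have risen or fallen when its adjusted p was under 0.05 in the quasi-likelihood test of edgeR over 15615 tested genes. The 6 libraries held between 30658136 and 39182371 reads, of which the 44 genes took 0.0856% to 0.0917%. DDX17 itself stood at 177, 184 and 206 CPM in the siCtrl libraries and at 32.1, 30.8 and 30.4 CPM in the siDDX17 libraries, a log2 fold change of -2.60 ± 0.07 (SE, n = 3 per group, two-sided exact permutation p = 0.1, the smallest that 3 against 3 libraries can give). siCtrl 1 lay farthest from its group over the 30 tested genes of the set that averaged at least 1 CPM, with a root mean square deviation of 0.198 log2 units against 0.118 and 0.125 in siCtrl 2 and 3. Of the epithelial and A549 markers, KRT8, KRT18, KRT19, AKR1C1, AKR1B10 and NQO1 fell, by 0.18 to 0.49 on the log2 scale, the adhesion molecule EPCAM rose 2.55-fold from a mean of 0.883 CPM, and CDH1 and ALDH1A1 did not pass the test. Markers of other cell types were low, with 1 to 33 reads in all for the endothelial PECAM1, VWF and CDH5, 18 to 28 for the fibroblast PDGFRA, PDGFRB, DCN and LUM, and 3 for the leukocyte PTPRC. The monocyte marker CD14 was present, at means of 24.6 CPM in siCtrl and 28.5 CPM in siDDX17 (adjusted p = 0.0772, overlapping groups), and the macrophage marker CD68 had 295 reads in all with a fold of 1.42 for siDDX17 over siCtrl, no overlap and an adjusted p of 0.0828. The part of these markers in the results was not tested.

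Binding motifs were sought in the promoters, and 5 genes that changed are shown, 4 with an ISRE core in different arrangements and IRF1 with a GAS core alone. RefSeq promoters on GRCh38.p14 were found for 35 of the 44 genes, as 250 bases before and 50 bases after the first listed start. DHX58, OAS2, OASL, IRF3, IRF7, IFIT2, IFITM2, MX2 and USP18 were not among them. The ISRE core was searched as GAAANNGAAA and TTTCNNTTTC, which are the same motif on either strand, and the GAS core, the site of STAT dimers, as TTCNNNGAA, which reads the same on both strands. Matches that overlap were each counted, and a GAS match can share bases with an ISRE match. In the 160 bases before each start below, printed 5′ to 3′ on the strand of the gene, capitals mark ISRE cores in the first 4 and the GAS core in IRF1.
IFIT1, chr10:89392463-89392622, plus strand: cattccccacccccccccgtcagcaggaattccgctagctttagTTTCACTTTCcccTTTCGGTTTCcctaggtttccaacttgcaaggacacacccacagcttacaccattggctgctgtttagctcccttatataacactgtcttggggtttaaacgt
TAP1, chr6:32853705-32853864, minus strand: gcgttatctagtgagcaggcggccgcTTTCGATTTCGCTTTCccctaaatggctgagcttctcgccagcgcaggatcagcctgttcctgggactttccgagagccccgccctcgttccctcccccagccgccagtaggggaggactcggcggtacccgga
OAS3, chr12:112938314-112938473, plus strand: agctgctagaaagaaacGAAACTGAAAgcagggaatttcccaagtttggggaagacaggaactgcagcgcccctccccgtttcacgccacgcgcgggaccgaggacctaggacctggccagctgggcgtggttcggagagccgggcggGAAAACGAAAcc
ISG15, chr1:1013337-1013496, plus strand: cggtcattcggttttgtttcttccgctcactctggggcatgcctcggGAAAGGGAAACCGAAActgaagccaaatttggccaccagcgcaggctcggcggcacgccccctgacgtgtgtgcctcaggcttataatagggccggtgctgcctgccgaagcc
IRF1, chr5:132490774-132490933, minus strand: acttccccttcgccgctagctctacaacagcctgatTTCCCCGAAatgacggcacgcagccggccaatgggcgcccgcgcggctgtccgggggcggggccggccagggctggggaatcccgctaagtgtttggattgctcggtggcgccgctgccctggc

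An ISRE core was present in 22 of the 35 promoters (62.9%), compared with 3.65% of all 27305 promoters in the table and 2.64% of the 11205 promoters of tested genes. The GAS core was present in 10 of the 35 (28.6%) and in 7.88% of all promoters. IFIT1 has its pair of ISRE cores at positions -116 and -103 from the start, and OAS3 has them at -143 and -12. In TAP1 and ISG15 the cores overlap and form a longer run of repeats. Among genes that rose, 3 of 7 promoters held an ISRE core, among genes that fell 4 of 8, and among tested genes that did neither 12 of 15. Genes with the motif therefore stood in all 3 classes, and these small counts were not tested. DDX58, MAVS, STAT2, PSMB8 and PSMB9 had neither motif in this window, which says only that these letters are not there.

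**Figure D1:**
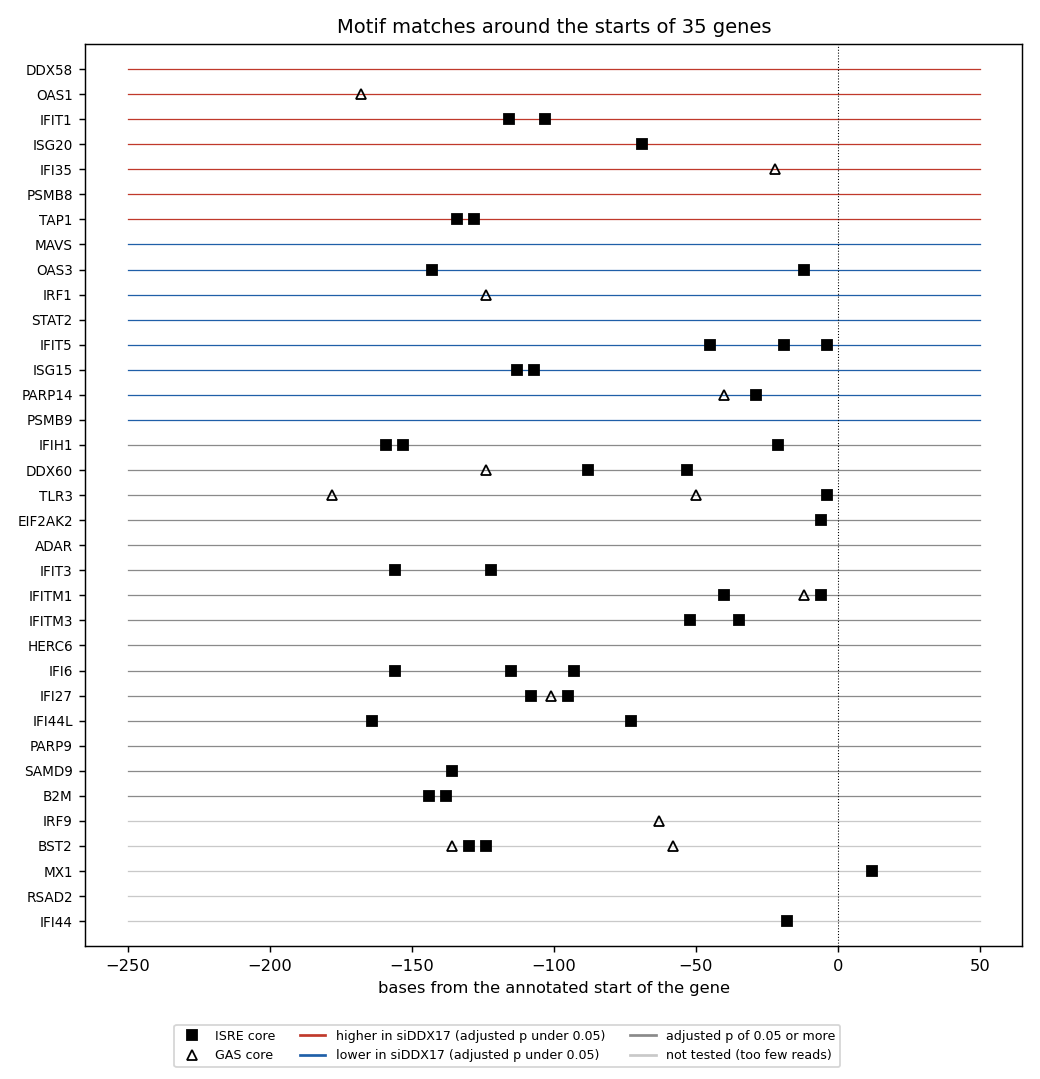
Positions of ISRE cores (squares) and GAS cores (triangles) from 250 bases before to 50 bases after the annotated start of 35 genes, with line colour giving the call in the comparison of siDDX17 with siCtrl. Squares lie on lines of every colour, and 22 of the 35 genes have at least 1.

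Basal levels spanned a wide range. B2M, the invariant light chain of MHC class I, was the most abundant gene per length, at 93.6, 99.1 and 95 FPKM in the siCtrl libraries and 98.2, 101 and 107 FPKM in the siDDX17 libraries. By mean FPKM over the 6 libraries it was followed by IFITM2, IRF3, ADAR, IFITM3 and IFI6. B2M, ADAR, MAVS and IRF3 together gave 59.0% of the 189074 reads of the set. In siCtrl, 23 of the 44 genes averaged at least 1 FPKM and 21 averaged less.

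A group of 8 genes had under 60 reads in total over the 6 libraries and is too low to judge. MX2 had 3 reads, IRF9 4, OAS2 8, RSAD2 12, BST2 23, IFI44 34, MX1 52 and DHX58 56, together 192. MX1, RSAD2, OAS2 and BST2 are textbook markers of an interferon response. MX1, an antiviral GTPase, had 6, 5 and 6 reads in the siCtrl libraries and 12, 15 and 8 reads in the siDDX17 libraries, so that its groups did not overlap, but it did not pass the filter on low counts and was not tested. DHX58 passed the filter, with 3, 15 and 8 reads in the siCtrl libraries and 11, 10 and 9 in the siDDX17 libraries, and its groups overlapped. IFI44L, IFITM1 and IFI27 lay just above that limit, with 60, 65 and 79 reads.

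The count of IRF9 needs care. IRF9 (ENSG00000213928.8, chr14:24161234-24168043) is the DNA-binding subunit of the complex with STAT2, and it had 4 reads in all. A gene annotated on the same strand, ENSG00000259529.1, covers 23.9% of the exonic bases of IRF9 in GENCODE release 44 and had between 547 and 692 reads in each library. The sources used here do not state how reads of overlapping genes were counted, so the reads of these genes cannot be told apart. Among the 44 genes, 4 shared exonic bases with another counted gene on the same strand and 13 with one on the other strand. Genes that were not matched to a counted gene overlap others on the same strand, at 43.2% of the exonic bases of DDX58 and 21.1% of those of IFITM1. The largest overlaps on the other strand were 22.9% of IRF1 with C5orf56, which had 355 reads in all, and 19.3% of IRF3 with BCL2L12, which had 7521. The libraries were stranded, but the use of strand in counting is not given in the sources used here. IFITM1, IFITM2 and IFITM3 have closely similar sequences, and only uniquely mapped reads were counted, so the split between them is uncertain.

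**Figure D2:**
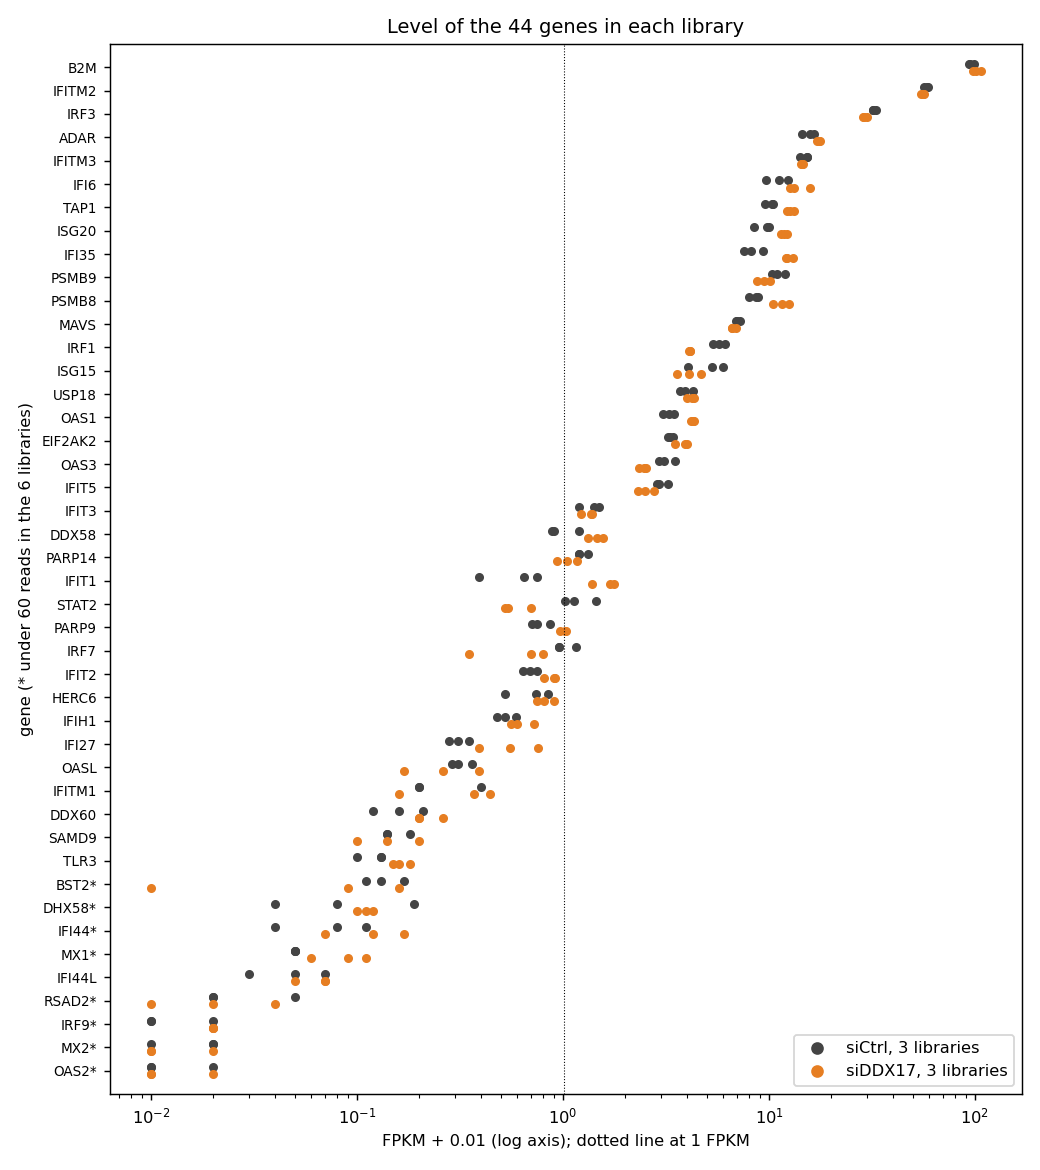
FPKM plus 0.01, on a log axis, of the 44 genes in each library, ordered by mean level, with siCtrl in grey and siDDX17 in orange. Levels run from about 100 FPKM for B2M to the bottom of the axis, where the starred genes with under 60 reads lie, and the groups lie close together for most genes.

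Of the 44 genes, 37 passed the expression filter and were tested. They differed between siDDX17 and siCtrl in both directions: 7 rose (DDX58, OAS1, IFIT1, ISG20, IFI35, PSMB8 and TAP1), 11 fell (MAVS, OAS3, IRF1, IRF3, IRF7, STAT2, IFIT5, IFITM2, ISG15, PARP14 and PSMB9) and 19 did not pass the test. Changes were small for most of them, and 1 gene rose (IFIT1) and 1 fell (STAT2) by more than 2-fold. These are averages over all cells of a culture, and a change in every cell and a change in some cells cannot be told apart.

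The share of these genes that changed was close to that of all genes. Among all 15615 tested genes 24.5% rose and 24.3% fell, against 18.9% and 29.7% of the 37 members. In sum 48.6% of the members passed the test, compared with 48.8% of all tested genes. Past 2-fold, 4.65% of all genes rose and 2.92% fell, against 2.70% of the members in each direction. With the limits that the methods state, an unadjusted p under 0.01 and a change of 1.5-fold, 11.0% of all genes rose and 8.03% fell, and of the members 1 rose (IFIT1) and 3 fell (IRF1, IRF7 and STAT2). The groups did not overlap, with siDDX17 above, for 28.8% of all genes and 9 of the members, and with siDDX17 below for 27.7% and 11 members. The median log2 fold change was 0.03 over the members and 0.01 over all genes, and its median size was 0.26 and 0.29.

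Scaling and single libraries moved these counts. TMM gave 7 higher and 11 lower members, and scaling by library size alone gave 11 higher and 6 lower, a setting in which the median over all tested genes was 0.13 on the log2 scale and 33.5% of them rose and 16.0% fell. Without siCtrl 1, 7 rose and 12 fell, while 27.0% of all tested genes rose and 27.4% fell. The count of higher members was 4 without siCtrl 2 and 4 without siDDX17 2, where 21.5% and 21.2% of all tested genes rose.

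**Figure D3:**
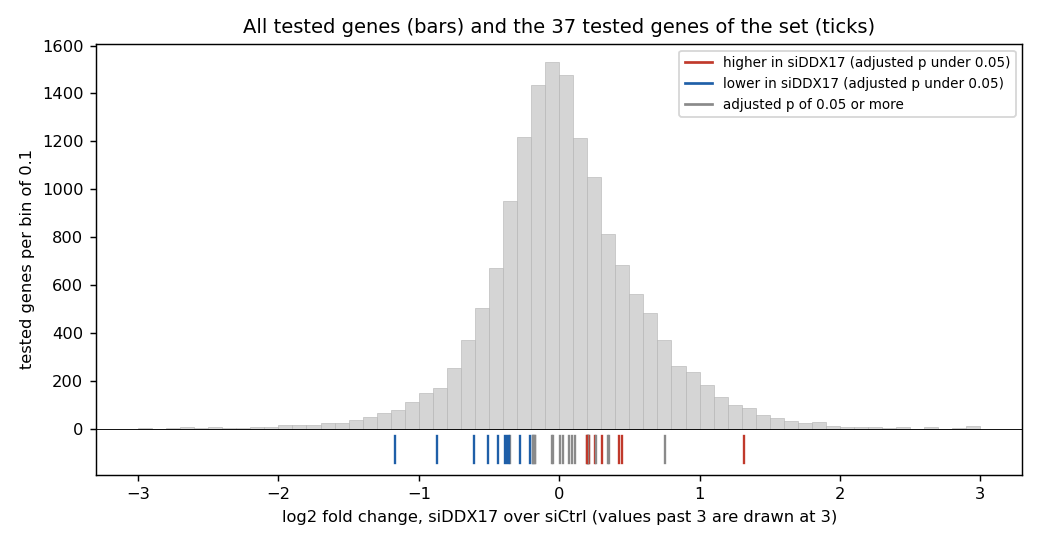
Histogram of the log2 fold change of 15615 tested genes in bins of 0.1, with a tick under it for each of the 37 tested members, coloured by call. The ticks spread over the body of the histogram on both sides of 0, with STAT2 the farthest left at -1.17 and IFIT1 the farthest right at 1.32.

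The transcription factors moved in 1 direction: all 4 that were tested fell, and each did so under all 15 alternative fits at an adjusted p under 0.05. With the limits of the methods IRF3 did not pass. STAT2 (ENSG00000170581.13, chr12:56341597-56360203), the subunit that carries transactivation in the complex with IRF9, had 5.23, 3.85 and 4.14 CPM in the siCtrl libraries and 2.34, 1.76 and 1.79 CPM in the siDDX17 libraries. Every siDDX17 library lay below every siCtrl library. STAT2 fell by 55.5%, a log2 fold change of -1.17 ± 0.17 (SE, n = 3 per group, adjusted p = 7.97e-05).

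IRF7 (chr11:612553-615983), which amplifies the transcription of type I interferon genes, had 2.6, 2.27 and 2.21 CPM in the siCtrl libraries and 0.726, 1.7 and 1.45 CPM in the siDDX17 libraries. The groups did not overlap, and siDDX17 1 was the lowest of all 6 libraries. Its log2 fold change was -0.87 ± 0.25, with an adjusted p of 0.00997, and was -0.58 (adjusted p = 0.0318) without siDDX17 1 and -1.11 without siDDX17 2, the latter past 2-fold. IRF1 (chr5:132440440-132508719), an activator of antiviral and antigen-presentation genes that is itself induced through a GAS site, had 24.8, 22.6 and 23.5 CPM in the siCtrl libraries against 15.6, 15.6 and 15.5 CPM in the siDDX17 libraries. The siDDX17 libraries of IRF1 were nearly level and all lower, at a log2 fold change of -0.60 ± 0.07 (adjusted p = 1.39e-05). IRF3 (chr19:49659569-49665875), the factor that MAVS signalling activates, stood at 84.7, 85.3 and 83.3 CPM in the siCtrl libraries and at 69.1, 72.1 and 67.7 CPM in the siDDX17 libraries. Its groups did not overlap, and its fall was the smallest of the 4, at -0.28 ± 0.05 on the log2 scale (adjusted p = 8.25e-04).

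In the IFIT family, whose proteins bind foreign RNA ends, 1 of 4 genes rose, 1 fell and 2 did not pass the test. IFIT1 (ENSG00000185745.9, chr10:89392546-89406487), which binds RNA that lacks the methylation of a mature cap, had 1.89, 3.29 and 3.71 CPM in the siCtrl libraries and 8.07, 6.42 and 7.68 CPM in the siDDX17 libraries. All siDDX17 libraries were above all siCtrl libraries, and siCtrl 1 was the lowest. IFIT1 rose 2.49-fold, a log2 fold change of 1.32 ± 0.19 (adjusted p = 7.67e-05), and the log2 fold change was 1.06 without siCtrl 1.

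IFIT5, encoded next to IFIT1, went the other way. It had 12.5, 12.8 and 14.2 CPM in the siCtrl libraries and 9.96, 9.33 and 10.9 CPM in the siDDX17 libraries, without overlap, for a log2 fold change of -0.39 ± 0.09 (adjusted p = 0.00334). IFIT5 did not pass in either limma fit of the FPKM values, where its adjusted p was at most 0.0672. IFIT2 and IFIT3, whose proteins join IFIT1 in a complex, had log2 fold changes of 0.21 (95% confidence interval -0.10 to 0.53) and -0.17 (-0.47 to 0.13), and the groups of both overlapped. Both intervals end below that of IFIT1, which was 0.91 to 1.73.

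Among the sensors and their adaptor, DDX58 rose, MAVS fell and the other 4 did not pass the test. DDX58, which encodes RIG-I, had 5.49, 4.33 and 4.11 CPM in the siCtrl libraries and 6.72, 5.76 and 6.23 CPM in the siDDX17 libraries. The lowest siDDX17 value was just above the highest siCtrl value, which was that of siCtrl 1. The log2 fold change was 0.43 ± 0.13 (adjusted p = 0.0163), and the adjusted p was 0.0568 without siCtrl 2, 0.0632 without siCtrl 3 and 0.0735 without siDDX17 1. MAVS, the mitochondrial adaptor of RIG-I and MDA5, stood at 90.9, 91.1 and 89.9 CPM in the siCtrl libraries and at 77.3, 81.7 and 76.7 CPM in the siDDX17 libraries. The groups of MAVS did not overlap, and its log2 fold change of -0.21 ± 0.05 (adjusted p = 0.00617) was -0.08 with an adjusted p of 0.197 when scaled by library size alone.

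The other sensors were low. IFIH1, which encodes MDA5, had 0.58, 0.47 and 0.51 FPKM in the siCtrl libraries and a log2 fold change of 0.11 (95% confidence interval -0.23 to 0.45). DDX60, a helicase that acts with RIG-I, and TLR3, the endosomal receptor for double-stranded RNA, had log2 fold changes of 0.36 (-0.16 to 0.88) and 0.35 (-0.18 to 0.87). Both intervals reach from a small fall to a rise close to 2-fold, so a moderate rise and no change cannot be told apart at this depth. The groups of DDX60 overlapped. Those of TLR3 did not, with siDDX17 above, as for 28.8% of all tested genes.

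The effectors that bind double-stranded RNA were split as well. OAS1 and OAS3, which make the second messenger of RNase L, lie side by side on chromosome 12 and moved in opposite directions. OAS1 had 15.1, 14.1 and 14.7 CPM in the siCtrl libraries and 17.8, 17.8 and 16.9 CPM in the siDDX17 libraries, a rise of 0.26 ± 0.07 on the log2 scale (adjusted p = 0.0113). OAS3 had 25.9, 25.5 and 29.8 CPM in the siCtrl libraries against 19.2, 20.1 and 18 CPM in the siDDX17 libraries, with a log2 fold change of -0.51 ± 0.08 (adjusted p = 1.78e-04). In both genes the groups did not overlap.

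EIF2AK2, the kinase PKR that stops translation, and ADAR, which edits adenosines in double-stranded RNA, were well covered. ADAR had 114, 109 and 121 CPM in the siCtrl libraries and 119, 116 and 116 CPM in the siDDX17 libraries, and the groups overlapped. The 95% confidence interval of the log2 fold change was -0.09 to 0.15 for ADAR and -0.07 to 0.21 for EIF2AK2. Scaled by library size alone, both passed the test as higher, at adjusted p values of 0.0485 and 0.0354. OASL, an OAS-like protein that assists RIG-I, had 208 reads in all and an interval of -0.98 to 0.28.

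**Figure D4:**
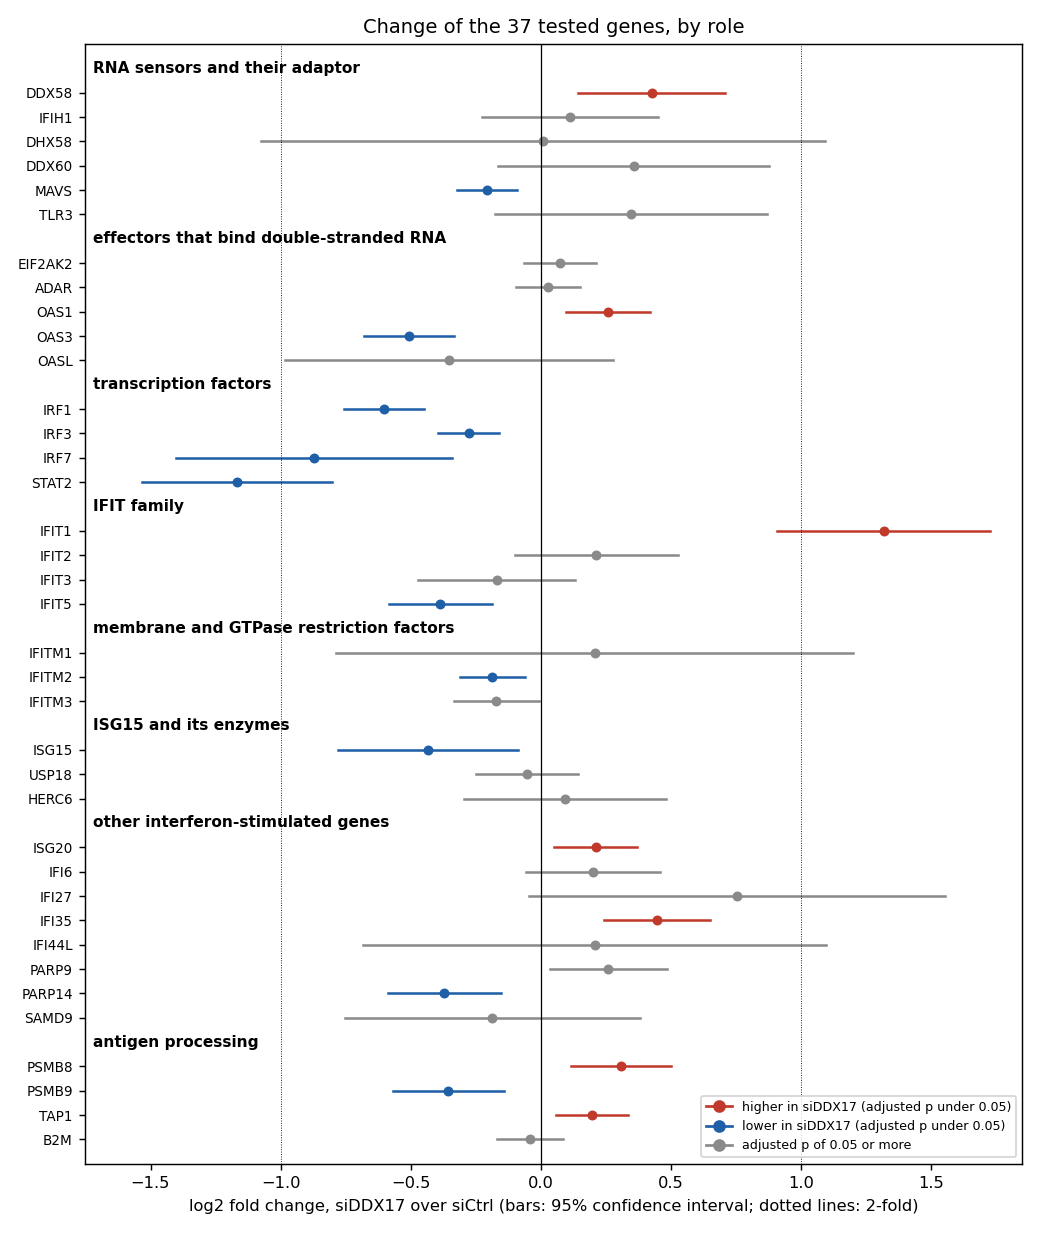
Log2 fold change of siDDX17 over siCtrl for the 37 tested genes, grouped by role, with bars for the 95% confidence interval and colour for the call. The 4 transcription factors lie left of 0, every other group with more than 1 called gene has calls on both sides, and the widest bars belong to genes with few reads.

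Among the membrane and GTPase restriction factors, 4 of 7 were too low to judge. IFITM2 had 63.6, 69.2 and 68.3 CPM in the siCtrl libraries and 58.8, 60.5 and 57.3 CPM in the siDDX17 libraries, without overlap. Its log2 fold change was -0.19 ± 0.06 (adjusted p = 0.0164), and the adjusted p was 0.0639 without siCtrl 2, 0.0539 without siDDX17 1, 0.0823 without siDDX17 3 and 0.34 when scaled by library size alone. IFITM3 had 18.3, 20.8 and 20.1 CPM in the siCtrl libraries and 17.5, 18 and 17 CPM in the siDDX17 libraries, also without overlap, and its adjusted p was 0.0785.

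ISG15, the ubiquitin-like protein that interferon induces strongly, had 4.05, 5.52 and 6.11 CPM in the siCtrl libraries and 4.38, 3.4 and 3.82 CPM in the siDDX17 libraries. It was the called gene whose groups overlapped, since siCtrl 1 lay below siDDX17 1. ISG15 fell by 0.43 ± 0.16 on the log2 scale (adjusted p = 0.0381). The adjusted p was 0.1 without siCtrl 2, 0.164 without siCtrl 3, 0.152 without siDDX17 2 and 0.102 without siDDX17 3. USP18, the protease that removes ISG15, had a log2 fold change of -0.05 (95% confidence interval -0.25 to 0.14), and HERC6, a ligase of the same family as the human ISG15 ligase, one of 0.09 (-0.30 to 0.48).

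Of the 9 other interferon-stimulated genes 2 rose, 1 fell, 5 did not pass the test and IFI44 was not tested. IFI35, a protein that takes part in innate signalling, had 10, 11.4 and 12.7 CPM in the siCtrl libraries and 15, 16.5 and 15 CPM in the siDDX17 libraries, and rose by 0.45 ± 0.10 on the log2 scale (adjusted p = 0.00163). ISG20, an exonuclease that acts on single-stranded RNA, had 22.3, 20.2 and 23.3 CPM in the siCtrl libraries against 24.6, 25.8 and 26 CPM in the siDDX17 libraries. Neither gene's groups overlapped. For ISG20 the log2 fold change was 0.21 ± 0.07 (adjusted p = 0.0299), and the adjusted p was 0.149 without siCtrl 2, 0.0814 without siDDX17 2, 0.104 without siDDX17 3 and 0.0502 in DESeq2.

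PARP14, an ADP-ribosyltransferase, had 9.95, 10.6 and 11.3 CPM in the siCtrl libraries and 9.13, 7.43 and 8.02 CPM in the siDDX17 libraries, without overlap, and fell by 0.37 ± 0.10 on the log2 scale (adjusted p = 0.00801). It was at -0.25 with an adjusted p of 0.0673 when scaled by library size alone. PARP9, which works with PARP14 in the cell, had 6.17, 6.12 and 7.23 CPM in the siCtrl libraries and 7.52, 7.98 and 7.92 CPM in the siDDX17 libraries. Its groups did not overlap in the upward direction and its adjusted p was 0.0539. IFI6, a mitochondrial and endoplasmic reticulum protein induced by interferon, had 8.92, 12 and 10.5 CPM in the siCtrl libraries and 10.9, 13.8 and 11.3 CPM in the siDDX17 libraries, with overlap and an adjusted p of 0.182. IFI27 had the largest log2 fold change among members that did not pass, 0.75 ± 0.37, from 79 reads in all.

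In antigen processing, PSMB8 and TAP1 rose, PSMB9 fell and B2M did not pass the test. PSMB8 and PSMB9 encode catalytic subunits of the immunoproteasome, and TAP1 a subunit of the peptide transporter of the endoplasmic reticulum. PSMB8 had 13.2, 14.9 and 14.9 CPM in the siCtrl libraries and 16.2, 19.5 and 17.6 CPM in the siDDX17 libraries. PSMB9 had 10.2, 12.2 and 10.9 CPM in the siCtrl libraries against 7.99, 8.81 and 9.21 CPM in the siDDX17 libraries. The groups of both genes were apart, at log2 fold changes of 0.31 ± 0.09 (adjusted p = 0.0112) and -0.36 ± 0.10 (adjusted p = 0.00881). For PSMB8 the adjusted p was 0.0647 without siDDX17 2, and for PSMB9 it was 0.066 when scaled by library size alone.

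TAP1 had 32.7, 31.7 and 33.7 CPM in the siCtrl libraries and 36.2, 39.4 and 36.9 CPM in the siDDX17 libraries. Its groups did not overlap, and it rose by 0.20 ± 0.06 on the log2 scale (adjusted p = 0.0203), with an adjusted p of 0.087 without siCtrl 2, 0.0879 without siDDX17 2 and 0.0535 without siDDX17 3. TAP1 and PSMB9 are transcribed away from each other from starts 488 bases apart, and they moved in opposite directions. B2M had 239, 264 and 247 CPM in the siCtrl libraries and 234, 243 and 252 CPM in the siDDX17 libraries, with overlap and a 95% confidence interval of -0.17 to 0.09 for the log2 fold change.

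**Figure D5:**
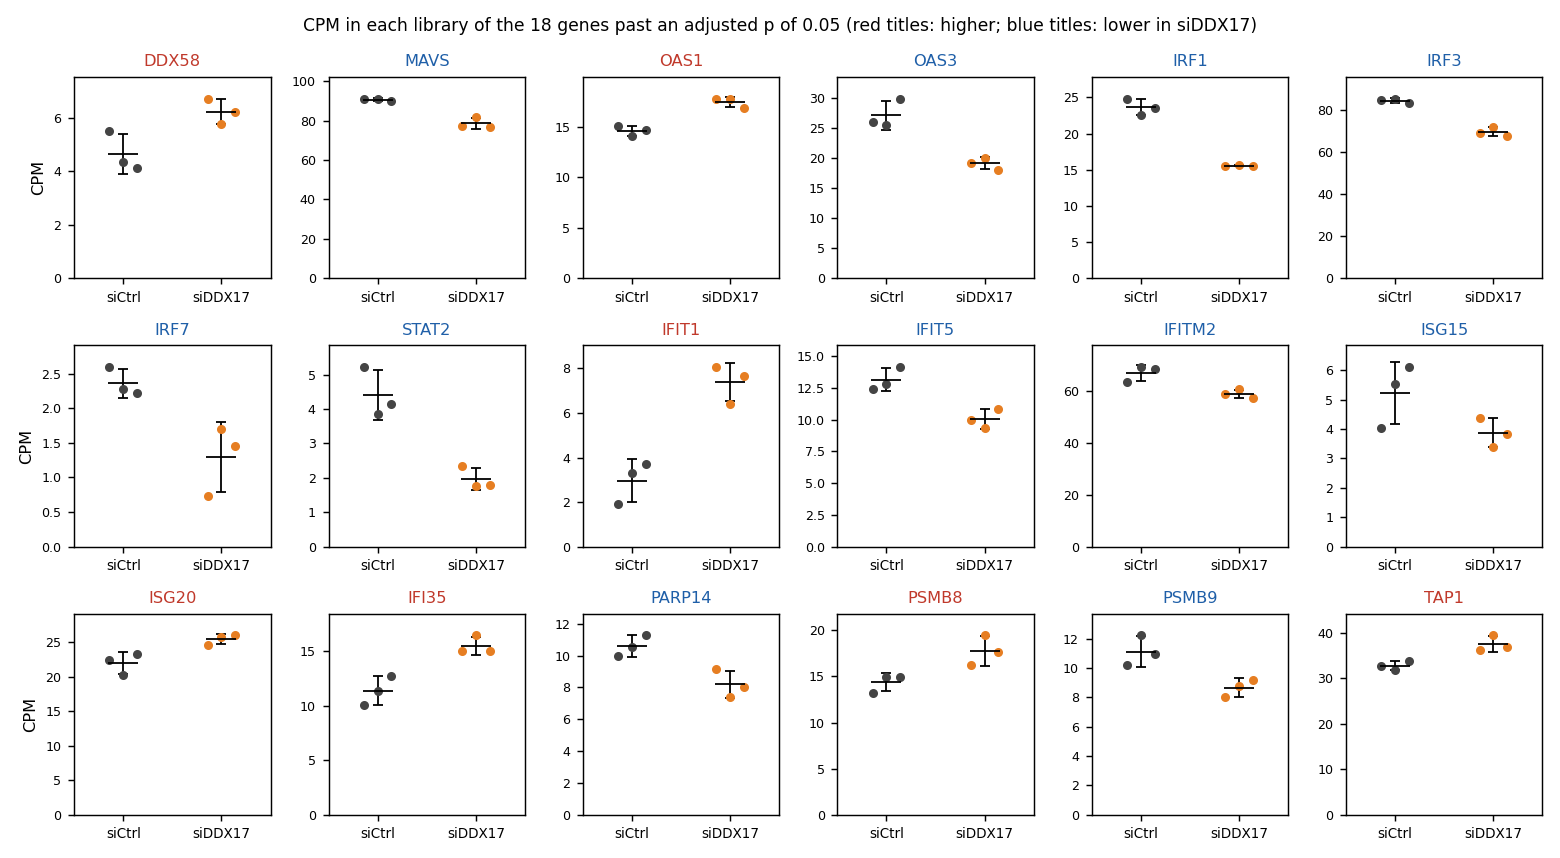
CPM in each library, on axes from 0, for the 18 genes with an adjusted p under 0.05, with black bars for the mean and SD of 3 libraries per group. For 17 of the 18 genes the groups do not overlap, the exception being ISG15, and most differences are small beside the level. The genes were chosen by the test on these same libraries, so this separation is not separate evidence.

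The rest of the pathway was read from a list of 107 symbols, of which 95 were found and 80 tested. Some genes were listed under both an older and a newer symbol, so a symbol not found need not be a gene not found. Of these 20 rose (25%), 14 fell (17.5%) and 46 did not pass the test, set against the 24.5% and 24.3% of all genes given above. Past 2-fold, 3 rose (TLR9, GBP1 and SAMD9L, 3.75%) and 2 fell (IFNLR1 and CCL5, 2.5%), against 4.65% and 2.92% of all tested genes. The median log2 fold change of these genes was 0.00. Scaled by library size alone, 31 rose and 8 fell, a setting in which 33.5% of all tested genes rose and 16.0% fell.

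Interferon transcripts were at or near the limit of detection. IFNA5 and IFNL1 had 1 read each over all 6 libraries and IFNL3 had 2, while IFNB1, IFNA1, IFNA2, IFNK, IFNW1, IFNL2 and IFNG were searched by symbol and were not analysed here. IFNE, an interferon of epithelia that is not induced by the usual sensors, was the ligand that could be tested, with 72 reads, a log2 fold change of -0.11 ± 0.41 and an adjusted p of 0.842. The interferon-induced chemokines CXCL9, CXCL10 and CXCL11 had 1, 2 and 1 reads. CCL5, the other chemokine found from the list, had 108 reads in all and was tested. It had 0.886, 0.664 and 0.534 CPM in the siCtrl libraries and 0.337, 0.357 and 0.337 CPM in the siDDX17 libraries. CCL5 fell by 50.1% (adjusted p = 0.0153), and its groups did not overlap. Except for IFNE and CCL5, these counts were too low for a test in either direction.

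Receptors and kinases were present. Of the receptor subunits, IFNAR1, IFNGR2 and IL10RB did not pass the test, at log2 fold changes of 0.02, 0.03 and -0.07. IFNAR2 fell by 0.17 (adjusted p = 0.0409), without overlap. IFNGR1 rose by 0.19 (adjusted p = 0.0412), but its groups overlapped, with siCtrl 1 at 92.1 CPM and siDDX17 2 at 90.1 CPM. IFNLR1, the receptor chain that is particular to type III interferon, had 2.75, 3.11 and 2.83 CPM in the siCtrl libraries and 1.58, 1.34 and 1.22 CPM in the siDDX17 libraries and fell by 1.06 ± 0.17 on the log2 scale (adjusted p = 1.59e-04). TYK2, the kinase bound to IFNAR1, had 28.5, 27.1 and 28.1 CPM in the siCtrl libraries and 16.4, 16.5 and 17 CPM in the siDDX17 libraries, at a log2 fold change of -0.75 ± 0.07 (adjusted p = 1.29e-06). Both sets of values were apart. The kinase JAK1 went the other way, with 116, 117 and 121 CPM in the siCtrl libraries and 148, 140 and 148 CPM in the siDDX17 libraries. JAK1 rose by 0.30 ± 0.05 on the log2 scale (adjusted p = 5.41e-04) without overlap, and JAK2 did not pass the test (adjusted p = 0.243).

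The pathway genes with the smallest adjusted p among those that fell were, after TYK2, TICAM1 (log2 fold change -0.80, adjusted p = 5.22e-06), PARP12 (-0.70, 1.05e-05), IFNLR1 and SOCS3 (-0.39, 3.64e-04). TICAM1 is the adaptor of TLR3, and SOCS3 is an inhibitor of cytokine signalling. Those that rose with the smallest adjusted p were TLR9 (log2 fold change 2.46, adjusted p = 1.37e-05), SP110 (0.77, 2.17e-05), TRAF3 (0.42, 1.68e-04), SP100 (0.48, 2.82e-04) and STAT3 (0.31, 4.29e-04). TLR9, the sensor of unmethylated DNA in endosomes, rose from 0.236, 0.175 and 0.187 CPM in the siCtrl libraries to 1.17, 1.15 and 1.04 CPM in the siDDX17 libraries, on 147 reads in all. TRAF3 links MAVS and the Toll-like receptors to interferon induction, and SP100 and SP110 are nuclear body proteins that interferon induces.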

How the data were processed

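Polyadenylated RNA of 3 siCtrl and 3 siDDX17 cultures of A549 cells was sequenced in stranded libraries. After trimming, reads were aligned by the authors to GRCh38 in TopHat2 with at most 4 mismatches, and raw counts of uniquely mapped reads per gene were deposited. The authors also deposited FPKM values, rounded to 2 decimals, for 29242 of the 29476 genes. The counting program, the use of strand and the annotation release are not given in the sources used here.

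Counts were analysed with edgeR 4.0.16 in R 4.3.3: TMM scaling, the filterByExpr filter, which kept 15615 genes, and the quasi-likelihood F test (glmQLFit, then glmQLFTest), adjusted over all tested genes by the Benjamini-Hochberg method. SE was the log2 fold change divided by the root of the F statistic. All 44 genes are described. Values in every library are given for members with an adjusted p under 0.05 and at least 1 CPM, for the 6 with the highest mean FPKM and for DDX17, and some others are given by value. Of the pathway list, the 5 smallest adjusted p in each direction and each tested ligand and receptor are named. The members and the lists were chosen with earlier results of these data known. Alternatives were limma 3.58.1 on log2(FPKM + 1) and log2(FPKM + 0.1), DESeq2 1.42.0, 3 other scalings, 2 other filters, a block for the replicate number, the limits of the methods, and each library left out in turn. Groups came from the sample titles. The p-values of edgeR weigh the difference between groups against the spread among cultures of a group, estimated with information shared across genes. They cover these 6 cultures alone. Read totals were 30658136 to 39182371, and a gene under 60 reads in total was called too low to judge.

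The edgeR step was tested on simulated counts of 15615 genes for siDDX17 against siCtrl, of which 200 were changed. It called 70.7% of genes changed by 0.5 on the log2 scale, 90.5% of those changed by 1 and 97.5% of those changed by 2. There were 11 false calls among the genes left unchanged. In the data 48.8% of tested genes passed, a far larger share than was changed in the simulation, so these rates need not hold there. Positions are from GENCODE release 44 and promoters from RefSeq GRCh38.p14. The siRNA sequences are not shown, and 1 gene of the pathway list is not reported here. Figures were drawn in Python 3.11.15 with matplotlib 3.10.9.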

Additional observations from a re-analysis of the deposited data

How the results depend on the processing

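Of the 18 members that passed the test, OAS1, OAS3, IRF1, IRF3, IRF7, STAT2, IFIT1 and IFI35 did so under all 15 alternative fits at an adjusted p under 0.05, in the same direction. The limits of the methods, which were applied to counts, were met by IFIT1, IRF1, IRF7 and STAT2. Over the 37 tested members, 483 of 551 alternative values kept their direction and their side of the threshold, 35 no longer passed, 15 newly passed and 18 changed sign. The higher count of 7 became 11 with library size only, 11 with limma on log2(FPKM + 1) and 1 with the limits of the methods, and ran from 4 to 7 with a library left out. Of all tested genes 33.5%, 33.3%, 11.0% and 20.4% to 27.0% rose in these settings. The lower count of 11 became 6 with library size only, 6 with either limma fit and 3 with the limits of the methods, and ran from 9 to 12 with a library left out. Here 16.0%, 15.2%, 8.03% and 19.8% to 27.4% of all tested genes fell. Past 2-fold, no member rose and none fell with limma on log2(FPKM + 1) (0 and 0, against 1 and 1 in edgeR), and 0 fell on log2(FPKM + 0.1), where a pseudocount shrinks low genes. With a library left out, 1 to 2 fell past 2-fold. The shares of all tested genes past 2-fold were not computed for these alternative fits. These counts therefore show nothing particular to the members. At the lower limit of 1.5-fold of the methods, 3 fell. Pathway genes numbered 31 higher and 8 lower with library size only, against 33.5% and 16.0% of all tested genes. With the limits of the methods they numbered 6 and 5 (7.5% and 6.25%), against 11.0% and 8.03% of all tested genes.

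Directions reversed, without passing the test, for DHX58 without the filter (-0.0020), in DESeq2 (-0.036) and with a library left out (-0.416 to 0.762). USP18 and B2M reversed with library size only (0.069 and 0.083), on log2(FPKM + 1) (0.064 and 0.088) and on log2(FPKM + 0.1) (0.078 and 0.088). With a library left out, ranges crossed 0 for ADAR (-0.012 to 0.068), IFITM1 (-0.078 to 0.62), USP18 (-0.092 to 0.0043), HERC6 (-0.111 to 0.266), IFI44L (-0.087 to 0.628) and SAMD9 (-0.482 to 0.0037). The causes were not tested.

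Same-numbered libraries did not deviate together (correlations 0.01, 0.04 and -0.06 over 15615 genes), so the numbers were not taken as pairs. With the replicate number as a block, 7 members rose and 10 fell, ISG15 having an adjusted p of 0.058. Of all tested genes 24.0% rose and 23.9% fell in that fit. Depth limits the 8 genes under 60 reads, and the duplication of reads was not measured.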
